A study of Mus musculus with 4 samples.

Results

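The Krüppel-like factors examined here are 10 genes, Klf2, Klf3, Klf4, Klf6, Klf7, Klf9, Klf10, Klf11, Klf13 and Klf16, taken by gene symbol from the 37646 genes counted in each library. All 10 were found once in every table and all 10 passed the filter on low counts. RNA came from splenic B cells of C57BL/6 mice, 4 libraries in 1 group, numbered 1 to 4. Every mouse carried 1 copy of a YFP reporter behind a stop cassette (YFPstopF/+) and 1 copy of Cg1Cre (Cg1Cre/+), a Cre recombinase expressed from the Ighg1 locus. Sheep red blood cells were injected as antigen and again 20 days later, and living B220+YFP+ cells, labelled splenic GC B cells, were sorted 10 days after the second injection. Cre acts in B cells that transcribe Ighg1, and YFP stays on in their descendants, so that germinal centre cells and the memory or plasma cells that came from them can all carry it. With 1 group, the comparisons are between the members within a library and between libraries. Whether the libraries stem from separate animals is not stated, although library 3 differed in sex from the others (next paragraph). The p-values thus measure the spread between these libraries, which may be technical in part and includes this difference. With 1 such library, sex cannot be told apart from other traits of library 3.

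Library totals ran from 13777954 to 14629025 counts, and mitochondrial genes took 18.1 to 23.3% of them. All 7 B lineage markers and all 8 germinal centre markers exceeded 1 transcripts-per-million (TPM) unit in every library. Their summed TPM ran from 4798 to 6539 for the B lineage and from 1171 to 1963 for the germinal centre list. T cell markers were present at 174 to 454 summed TPM. Library 3 alone lacked Xist (6 counts, against 8689 to 12160) and held Ddx3y (1307 counts, against 0 to 3), so its animals differed in sex from the others. In such bulk samples, fewer cells of a type and less RNA per cell cannot be told apart.

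Krüppel-like factors are transcription factors that bind GC-rich and CACCC elements through zinc fingers at their C-terminal end. Their N-terminal parts differ and sort the family into activators (Klf2, Klf4, Klf6 and Klf7 among the members), a factor that recruits the CtBP corepressors (Klf3), and factors that recruit the SIN3A corepressor (Klf9, Klf10, Klf11, Klf13 and Klf16). In resting lymphocytes KLF2 maintains quiescence and turns on trafficking genes such as S1pr1, and it is switched off on activation. KLF4 restrains proliferation of lymphocytes. Klf2, Klf4, Klf6 and Klf10 are also known as immediate early genes, which respond within minutes to signals or stress.

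The family was dominated by Klf2. Summed over the 10 members, the level was 1552 ± 483 TPM (SD, n = 4), of which Klf2 made up 66.3, 73.6, 61.9 and 67.1% in libraries 1 to 4 (67.2% ± 4.81). Klf2 and Klf6 together made up 84.6% ± 3.39. Without gene length, as a share of summed counts, the Klf2 share was 46.1%, since Klf2 has the shortest transcript of the members (1847 nt of exon). Among the 13471 genes with a mean of at least 1 TPM, Klf2 ranked 58, Klf6 261 and Klf4 1122. At the other end, Klf7 ranked 9176 and Klf9 9335.

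**Figure D1:**
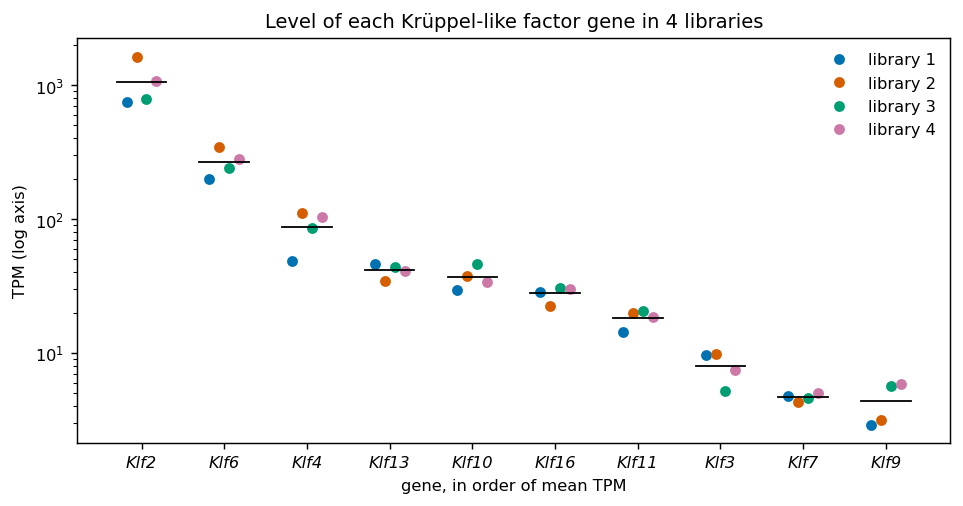
TPM of each member (log axis) in libraries 1 to 4 (coloured points), with the mean of the 4 libraries as a bar, genes in order of mean TPM. Klf2 stands above Klf6 and Klf6 above Klf4 in each library, whereas Klf13 and Klf10, and Klf7 and Klf9, change places between libraries.

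The order of mean TPM was Klf2, Klf6, Klf4, Klf13, Klf10, Klf16, Klf11, Klf3, Klf7 and Klf9. Within-library differences on the log2(TPM + 1) scale between genes next to each other in this order had 1 sign in all 4 libraries and a mean above their SD for 7 of 9 pairs. Klf2 exceeded Klf6 by 1.95 ± 0.22, and Klf6 exceeded Klf4 by 1.63 ± 0.26. The exceptions were Klf13 and Klf10, at 0.18 ± 0.35, and Klf7 and Klf9, at 0.12 ± 0.40, which did not differ beyond their spread and were each in that order in 2 of 4 libraries. No p is given for these pairs, because a sign-flip test over 4 libraries cannot pass the threshold of 0.05. Divided by the longest transcript in place of the union of exons, Klf10 (43.5 ± 7.99 TPM) stood ahead of Klf13 (42.1 ± 4.84 TPM) and Klf3 stood at 15.0 ± 4.24 TPM, against 8.01 ± 2.17 by the union, and 5 of 9 pairs met the same condition.

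Klf2 (chromosome 8, 72319033 to 72321656, plus strand, mm10) had 753, 1630.4, 783 and 1068 TPM in libraries 1 to 4, a mean of 1058 ± 407 (SD, n = 4). Library 2 stood highest, library 4 second, and libraries 1 and 3 lay close together below them. On the scale used to compare libraries, counts-per-million (CPM) values normalised by TMM, Klf2 had 635, 1519, 570 and 856, a 2.67-fold range. Library 1 was thus lowest by TPM and library 3 by normalised CPM. Without library 2 its range was 1.503-fold.

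Klf6 (chromosome 13, 5861482 to 5870394, plus strand), an activator induced by injury and known as a tumour suppressor, had 199, 343, 240.1 and 280 TPM in libraries 1 to 4, a mean of 265 ± 61.6. Klf4 (chromosome 4, 55527143 to 55532466, minus strand), also one of the factors that reprogram cells to pluripotency, had 48.5, 112, 85.5 and 103 TPM, a mean of 87.2 ± 27.99. Both genes were highest in library 2 and lowest in library 1, and library 4 was second for both. In normalised CPM their ranges were 1.91-fold for Klf6 and 2.54-fold for Klf4, or 1.67-fold for Klf4 without library 1.

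Klf7 (chromosome 1, 64029447 to 64122282, minus strand), an activator best known in neurons, was low and even, at 4.77, 4.33, 4.63 and 5.01 TPM (4.68 ± 0.29). Its normalised CPM had a 1.20-fold range, with library 3 lowest at 14.8 and the others at 17.7. A gene on the opposite strand, Gm26649, shares 3196 nt of exon with Klf7 and was not analysed here. The use of strand in counting is not stated, so reads of such an opposite gene could be counted to Klf7.

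The promoters of Klf2, Klf4 and Klf6, the most abundant members, and of Klf13, the steadier gene next in the order, are printed as RefSeq gives them (GRCm38.p6), 5′ to 3′ on the gene's strand, from 250 bases before to 50 after the gene start. They lie at chr8:72318812-72319111 (plus), chr4:55532426-55532725 (minus), chr13:5861239-5861538 (plus) and chr7:63938866-63939165 (minus). Capitals mark every match of the motifs named in the next paragraph, on either strand.
Klf2: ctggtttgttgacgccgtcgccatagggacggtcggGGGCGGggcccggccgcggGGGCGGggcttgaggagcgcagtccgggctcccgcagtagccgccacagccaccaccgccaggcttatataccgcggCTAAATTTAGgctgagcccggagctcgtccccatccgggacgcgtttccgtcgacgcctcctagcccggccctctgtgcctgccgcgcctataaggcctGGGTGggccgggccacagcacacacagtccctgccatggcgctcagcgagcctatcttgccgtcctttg
Klf4: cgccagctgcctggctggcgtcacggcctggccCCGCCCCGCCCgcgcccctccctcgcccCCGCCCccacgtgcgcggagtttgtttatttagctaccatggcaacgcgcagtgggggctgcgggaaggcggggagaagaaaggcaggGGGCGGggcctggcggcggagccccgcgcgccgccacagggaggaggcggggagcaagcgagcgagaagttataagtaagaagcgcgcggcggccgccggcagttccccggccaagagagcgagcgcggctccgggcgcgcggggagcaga
Klf6: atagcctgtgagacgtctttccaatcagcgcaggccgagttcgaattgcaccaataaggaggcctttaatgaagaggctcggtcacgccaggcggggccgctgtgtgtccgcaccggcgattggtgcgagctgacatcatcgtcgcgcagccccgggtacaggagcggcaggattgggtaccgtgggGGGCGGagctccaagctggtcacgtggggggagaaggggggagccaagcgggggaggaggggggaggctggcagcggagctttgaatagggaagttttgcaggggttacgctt
Klf13: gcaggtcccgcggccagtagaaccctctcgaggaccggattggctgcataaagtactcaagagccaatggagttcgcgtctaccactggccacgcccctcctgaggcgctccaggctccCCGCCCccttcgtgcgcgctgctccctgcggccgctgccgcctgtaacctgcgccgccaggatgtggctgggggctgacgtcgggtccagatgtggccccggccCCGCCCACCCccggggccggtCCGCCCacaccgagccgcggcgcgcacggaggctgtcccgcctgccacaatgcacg

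The promoter table held 8 of the 10 members. Motifs were searched on both strands as exact letters: the GC box GGGCGG, the element CACCC, the cyclic AMP response element TGACGTCA, the AP-1 site TGANTCA, a MEF2-like site (CTA and TAG on either side of 4 bases of any kind), the TATA box TATAAA, and the CArG box by its usual pattern. A GC box was present in 7 of the 8 member promoters, against 35.7% of 32851 promoters in the table. The element CACCC was present in 5 of 8, against 57.5% of all promoters. Member promoters had a median GC content of 70.7%, against 52.7% for all promoters, and motifs made of G and C are found more often in such sequence. The MEF2-like site was present in Klf2 alone of the 8, as CTAAATTTAG at 118 to 109 bases before the gene start, against 3.69% of all promoters. The AP-1 site was present in 1 of 8 (Klf9) against 7.81% of all, and the cyclic AMP response element, the CArG box and the TATA box in 0 of 8, against 1.79, 1.63 and 13.6% of all. In Klf4 a pair of GC boxes overlap by 1 base, and in Klf13 the CACCC element overlaps a GC box by 1 base. A match describes the letters in this window only.

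**Figure D2:**
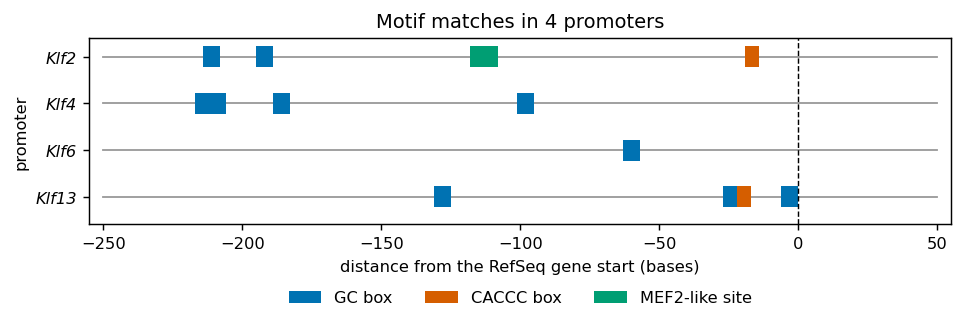
Positions of motif matches in the promoters of Klf2, Klf4, Klf6 and Klf13, in bases from the RefSeq gene start (dashed line); boxes show the GC box, the CACCC element and the MEF2-like site to scale. Klf2 has 2 GC boxes and the MEF2-like site, Klf4 has 4 GC boxes, Klf6 has 1 and Klf13 has 3.

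Klf3 (chromosome 5, 64803388 to 64832901, plus strand), a repressor that acts in B cell and erythroid development, had 9.70, 9.73, 5.17 and 7.45 TPM in libraries 1 to 4, a mean of 8.01 ± 2.17. Libraries 1 and 2 were close together, and library 3 was lowest. Normalised CPM was 49.8, 55.2, 22.9 and 36.4, a 2.41-fold range, or 1.52-fold without library 3. The union of its exons (11243 nt) is much longer than its longest transcript (5221 nt), which is why its TPM depends on the length used. The opposite gene Gm20033 shares 404 nt of its exons and had 7 to 15 counts, against 343 to 715 for Klf3.

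The members that recruit SIN3A were moderate to low. Klf13 (chromosome 7, 63886351 to 63938915, minus strand), known in human T cells for activating the chemokine gene Ccl5, had 46.1, 34.5, 44.0 and 40.8 TPM, a mean of 41.3 ± 5.06. Klf16 (chromosome 10, 80567124 to 80577321, minus strand) had 28.6, 22.2, 30.4 and 29.9 TPM, a mean of 27.8 ± 3.78. On the TPM scale both were lowest in library 2, the library in which Klf2, Klf4 and Klf6 were highest. By TPM, 9.25% of all genes tested were highest in library 2, against 25.1% in normalised CPM. In normalised CPM their ranges were 1.22-fold and 1.17-fold, and library 3 was lowest for Klf13 by a small margin (130.4, against 131.1 in library 2).

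Klf10 and Klf11 are the genes first described as TGF-beta-inducible early genes. Klf10 (chromosome 15, 38291463 to 38300706, minus strand) had 29.4, 37.4, 46.2 and 33.7 TPM, a mean of 36.7 ± 7.14. Klf11 (chromosome 12, 24651274 to 24662789, plus strand) had 14.2, 19.8, 20.6 and 18.5 TPM, a mean of 18.3 ± 2.86. Both were lowest in library 1 on either scale, whereas the highest was library 3 by TPM and library 2 by normalised CPM. Klf9 (chromosome 19, 23141226 to 23168134, plus strand), a gene induced by glucocorticoid and thyroid hormone, had 2.90, 3.14, 5.67 and 5.90 TPM, a mean of 4.40 ± 1.5997. Both values of libraries 3 and 4 were above those of libraries 1 and 2, and the counts behind them, 90 to 180, were the lowest of any member.

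**Figure D3:**
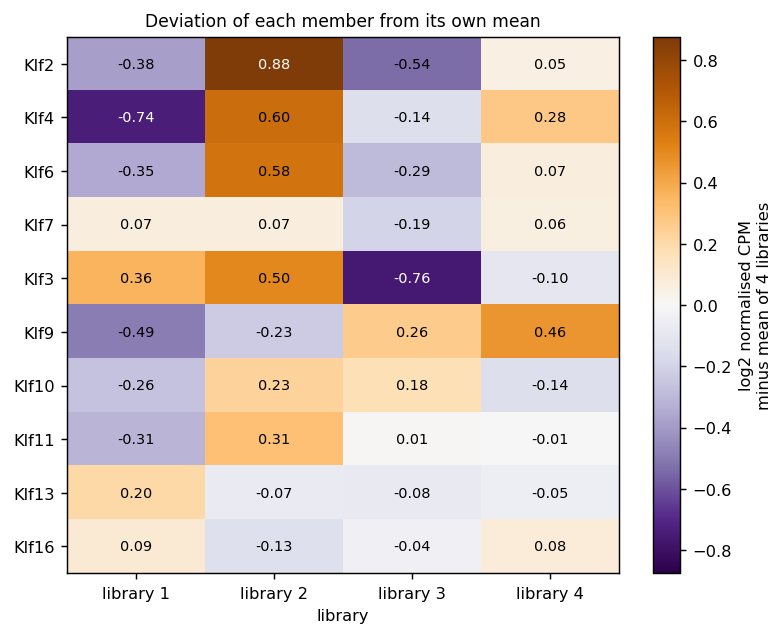
Each member's log2 normalised CPM minus its own mean over the 4 libraries, activators first (Klf2, Klf4, Klf6, Klf7), then Klf3, then the members that recruit SIN3A. Library 2 is at 0.88, 0.60 and 0.58 for Klf2, Klf4 and Klf6, and all values of Klf16 lie between -0.13 and 0.09.

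Whether a member differed between libraries by more than genes of its level do was tested with an edgeR quasi-likelihood fit over 11982 genes. None of the 10 members passed after Benjamini-Hochberg adjustment, against 0.00835% of all genes tested (1 gene). At an unadjusted p under 0.05 stood 4 of the 10 members, against 4.97% of all genes tested. These were Klf4 at 11.3 times the trend (edgeR adjusted p = 0.660), Klf2 at 10.5 times (adjusted p = 0.690), Klf3 at 7.77 times (adjusted p = 0.822) and Klf6 at 5.74 times (adjusted p = 0.990). The members' median was 1.93 times the trend, against 0.895 for all genes tested. Klf7 and Klf16 lay at the quiet end, each at 0.252 times the trend, where 13.8 and 13.7% of genes tested were as low. Without library 2 the count at the unadjusted threshold was 2 of 10, against 557 of 12204 genes. Klf2, at 3.58 times the trend, and Klf6, at 2.26 times, were then no longer under that threshold. Without library 3 the count was 3 of 10, against 606 of 12241 genes. Klf3, at 2.53 times the trend, was then no longer under that threshold. DESeq2 marked 1 member, Klf2, as a dispersion outlier, against 159 of 11982 genes. By limma-voom 0 members were called after adjustment, as were 0 of all genes, and 4 before it, against 603 of 11982 genes. With no filter on low counts edgeR called Klf2 (adjusted p = 0.00187), as 1 of 262 genes called among 31026.

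**Figure D4:**
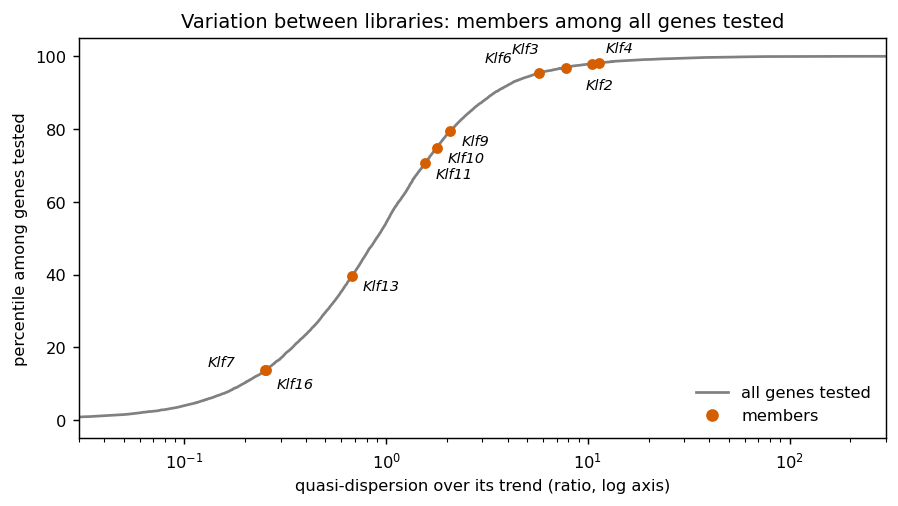
Quasi-dispersion over its trend (log axis) against percentile among the 11982 genes tested (grey line), with the members as points. Klf2, Klf3, Klf4 and Klf6 lie above the 95th percentile, at 98.0, 96.9, 98.2 and 95.4, and Klf7 and Klf16 below the 14th.

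Library 2 was the highest library for 7 of 10 members in TMM-normalised CPM, against 25.1% of all genes tested. With plain library totals it was 5 of 10 against 16.2%, and by TPM 4 of 10 against 9.25%. Among the 7, Klf7 was nearly level in libraries 1, 2 and 4 (17.739, 17.745 and 17.683 normalised CPM). The 4 that were highest in library 2 under each scaling were Klf2, Klf3, Klf4 and Klf6, although Klf3 was nearly level in libraries 1 and 2 by TPM (9.70 and 9.73).

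Immediate early genes, the transcription factor and feedback genes that cells induce first after a stimulus or after tissue handling, were likewise high in library 2. Of 14 such genes 12 were highest there in normalised CPM, against 25.1% of all genes tested, and 9 by TPM, against 9.25%. At an unadjusted p under 0.05 (edgeR) stood 11 of 14, against 4.97% of all genes tested, with 0 of 14 passing after adjustment. Those 11 were Fos, Fosb, Jun, Jund, Egr1, Egr2, Ier2, Atf3, Dusp1, Zfp36 and Nr4a1. The median of the 14 was 8.86 times the trend, against 0.895 for all genes tested. Fos, an AP-1 subunit, had 906, 1776, 313 and 679 normalised CPM in libraries 1 to 4. Dusp1, a phosphatase that switches off MAP kinases, had 394, 683, 141 and 298. Like Klf2 on this scale they were highest in library 2 and lowest in library 3, whereas Atf3, a stress-induced factor (11.6, 51.5, 29.1 and 50.2), was lowest in library 1, as were Klf4 and Klf6. The highest of the list by TPM were Junb (1119 ± 276), Jund (968 ± 236) and Fos (836 ± 488), and the lowest was Ier3 (3.43 ± 0.865). The part of such induction in the members' values was not tested.

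KLF2 trafficking targets were present in all 4 libraries. The chemokine receptor gene Ccr7 had 174 ± 35.0 TPM, S1pr1, the receptor through which lymphocytes leave tissues, 89.4 ± 11.5, and Itgb7, an integrin chain of gut homing, 77.1 ± 19.3. S1pr4, another receptor for sphingosine phosphate, had 38.7 ± 8.18 TPM. These 4 were highest in library 2, as was Klf2, in normalised CPM and by TPM, against 25.1 and 9.25% of all genes tested. Ccr7, for example, had 113, 205, 135 and 166 normalised CPM in libraries 1 to 4. Of these 4, Itgb7 alone was at an unadjusted p under 0.05 (edgeR adjusted p = 0.783), against 4.97% of all genes tested. By TPM, S1pr4 was nearly level in libraries 1 and 2 (45.7 and 45.9).

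Genes of lymphocyte quiescence were highest in different libraries, 4, 5, 3 and 4 of the 16 in libraries 1 to 4. The shares of all genes tested were 28.9, 25.1, 27.8 and 18.3%. Of the 16 quiescence genes, 3 were at an unadjusted p under 0.05 (edgeR), against 4.97% of all genes tested, and 0 passed after adjustment. The list's median was 1.11 times the trend, against 0.895 for all genes tested. The 3 were Slfn2, a factor that keeps T cells quiescent (edgeR adjusted p = 0.653), the antiproliferative gene Btg2 (adjusted p = 0.743) and the glucocorticoid-induced gene Tsc22d3 (adjusted p = 0.968). Each of these was highest in library 2, at 94.3, 258 and 299 normalised CPM. Btg1 (199 ± 27.0 TPM), Btg2 (139 ± 35.0) and Ypel3 (121 ± 14.3) were the highest of the list and Foxj1 (2.35 ± 1.25) the lowest. Foxo1, a factor that acts upstream of KLF2, had 289, 226, 244 and 228 normalised CPM, lowest in library 2 by a small margin. It stood at 0.991 times the trend (edgeR unadjusted p = 0.469). Of 9 genes upstream of Klf2, Foxo1 among them, 3, 2, 2 and 2 were highest in libraries 1 to 4 in normalised CPM.

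Regulators and partners of the family had medians of 0.805 and 0.553 times the trend, against 0.895 for all genes tested. Of all genes tested, 4.97% were at an unadjusted p under 0.05 (edgeR). Of 9 genes of the MEK5, ERK5, MEF2 and FOXO route to Klf2, 0 were at an unadjusted p under 0.05 in the edgeR fit. They were led by Mef2d (103 ± 18.6 TPM), Mef2c (68.8 ± 11.8) and Foxo1 (64.2 ± 10.0), down to Map3k2 (5.57 ± 0.89). Mapk7, which encodes ERK5, had 31.9 ± 3.63 TPM. Of 12 corepressor and coactivator genes, 11 were tested and 0 were at an unadjusted p under 0.05. Ctbp1, the partner of Klf3, had 118 ± 19.4 TPM and Sin3a, the partner of the Klf9 to Klf16 group, 50.2 ± 9.35, whereas Ctbp2 was at 0.242 ± 0.058. Hdac1 had 44.0 ± 14.8 TPM and the highest ratio of the 11 tested, 3.35 times the trend.

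The TGF-beta pathway, to which Klf10 and Klf11 respond, was expressed through ligand, receptor and signal transducer. Tgfb1 had 123 ± 9.78 TPM, the receptor gene Tgfbr2 43.3 ± 4.08 and the inhibitory Smad7 36.7 ± 7.99. The lowest of the 9 was the signal transducer Smad3 (10.4 ± 1.69). None of the 9 was at an unadjusted p under 0.05 in the edgeR fit, against 4.97% of all genes tested.

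Other genes of the same zinc finger class were mostly low. Of 7 Krüppel-like factor genes outside the members, none exceeded 1 TPM in every library. Klf12 (1.34 ± 0.47 TPM) and Klf8 (1.10 ± 0.16), both CtBP-recruiting relatives of Klf3, were the highest, and Klf17 had 0 or 1 count in each library. Klf1, the erythroid member, had 2, 3, 3 and 15 counts, and was highest in library 4, where the erythroid markers also had their highest sum (269 TPM, against 98.0 to 106). Among 9 SP factors, relatives that bind GC boxes, Sp3 (48.4 ± 6.48 TPM), Sp2 (40.1 ± 4.08), Sp1 (29.7 ± 3.99) and Sp4 (10.4 ± 1.05) were above 1 TPM in every library. Sp6 had 0 counts in every library, which allows up to 0.205 to 0.218 CPM (3 counts per library, for counting error only). All 4 SP genes tested were highest in library 1 in normalised CPM (3 by TPM), against 28.9% of all genes tested in normalised CPM. Of these 4 genes, 0 were at an unadjusted p under 0.05 (edgeR), against 4.97% of all genes tested.

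Markers of other cells and stages were set beside the members. Summed T cell markers stood at 454, 202, 174 and 380 TPM in libraries 1 to 4, with library 2 the third of 4, whereas Klf2, Klf4 and Klf6 were highest there. All 8 were detected in every library. All 8 were also at an unadjusted p under 0.05 (edgeR), against 4.97% of all genes tested, with 0 passing after adjustment. The 8 macrophage and monocyte markers, of cells that express Klf4 and Klf6, had sums of 276, 168, 203 and 223 TPM, lowest in library 2, to which Lyz2 alone gave 114, 32.8, 66.5 and 59.1 TPM. Their median deviation in log2 normalised CPM was 0.18 in library 2, close to library 1 (0.22) and above libraries 3 and 4 (-0.38 and -0.01). Endothelial and stromal markers, of cells with high Klf2 and Klf4, summed to 34.0, 38.8, 32.8 and 33.1 TPM. They consisted mainly of Pecam1 (33.4 ± 3.001). Cdh5 had 41, 19, 21 and 33 counts in libraries 1 to 4, while Kdr and Tek were at 7 counts or fewer in each library. Summed NK cell, neutrophil, erythroid and platelet markers were each highest in library 1 or 4. Within the neutrophil list, the 3 genes that passed the filter were highest in library 4 in normalised CPM. Mpo (3, 116, 2 and 43 counts in libraries 1 to 4) and Elane (0, 41, 0 and 6 counts), which did not pass it, were highest in library 2. Plasma cell markers summed to 1932, 1788, 954 and 1825 TPM, mostly Jchain, highest in library 1. Their median deviation was highest in library 2 (0.39, against 0.26, -0.74 and 0.13 in libraries 1, 3 and 4), as it was for Klf2, Klf4 and Klf6. In normalised CPM 3 of the 5 plasma cell markers tested, Prdm1, Xbp1 and Irf4, were highest there, against 25.1% of all genes tested. By TPM it was 2 of 5, against 9.25%. At an unadjusted p under 0.05 (edgeR) stood 4 of these 5, against 4.97% of all genes tested, with 0 passing after adjustment. The part of such cells in the members' values was not tested.

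Stage markers within the B lineage were also compared between libraries. At an unadjusted p under 0.05 (edgeR) stood 0 of 7 B lineage and 2 of 6 naive follicular markers. For germinal centre markers it was 3 of 8 and for cell cycle genes 0 of 12, against 4.97% of all genes tested. None of these genes passed after adjustment. The B lineage list itself had its highest median deviation in library 2 (0.21, against -0.05, 0.04 and -0.15). Of its 7 genes, 3 were highest there in normalised CPM, against 25.1% of all genes tested, and 1 by TPM, against 9.25%. Naive follicular markers, of cells in which Klf2 is known to be high, had a median deviation of 0.48 log2 in library 2, against -0.34, -0.17 and -0.04 in libraries 1, 3 and 4. Of the 6, 5 were highest in library 2 in normalised CPM and by TPM, against 25.1 and 9.25% of all genes tested. The summed TPM of the 6 markers, led by Fcer2a, was however highest in library 3 (825, 1225, 1270.4 and 1097 in libraries 1 to 4). Germinal centre markers had their lowest median deviation in library 2 (-0.24, against 0.33, 0.11 and -0.15), and 0 of 8 were highest there. Cell cycle genes were also lowest there (-0.28, against 0.03, 0.22 and 0.04). The list ran from Mcm5 (226 ± 56.5 TPM), Mki67 (214 ± 73.5 TPM) and Mcm3 (199 ± 63.9 TPM) down to Ccnb1 (12.6 ± 3.77 TPM). The part of a different mixture of B cell stages in the members' values was not tested.

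**Figure D5:**
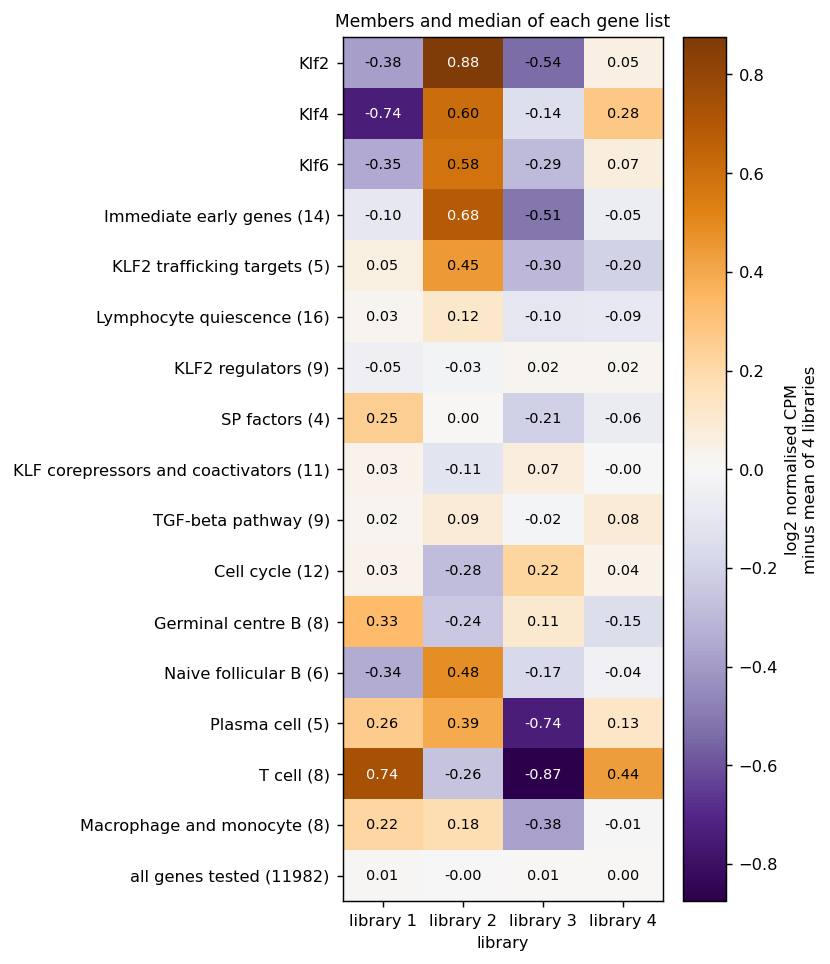
Log2 normalised CPM minus the mean of 4 libraries for Klf2, Klf4 and Klf6 and, below them, the median over each gene list (number of genes tested in parentheses). Library 2 is high for Klf2, Klf4, Klf6, immediate early genes (0.68), trafficking targets (0.45), naive markers (0.48) and plasma cell markers (0.39), and low for cell cycle and germinal centre lists, while the median of all genes tested is near 0 in every library.

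The genes whose pattern over the 4 libraries was most like that of Klf2, which was also the member with the largest SD of log2 normalised CPM (0.63), were taken from 8350 genes with at least 10 CPM on average. Likeness was the root mean square distance between centred log2 profiles. The nearest were the lambda V segment Iglv1 (0.042), the AP-1 gene Fosb (0.12) and Rhob, a small GTPase gene (0.13), and 24 genes lay within 0.2. With 4 libraries such likeness is a description of few points that share their library preparation.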

How the data were processed

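Each library has 1 deposited table of raw counts, in whole reads for each gene. STAR 2.5.2b, featureCounts 1.6.0 and FastQC are named, with the mm10 build, per the submitters' processing notes. Per the labels, libraries were poly(A)-selected and sequenced on DNBseq (50 nt single-end, 20 M reads planned). For annotation release, strand setting and multi-mapped reads, the choice is not given in the sources used here.

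Of 37646 genes, 37536 matched GENCODE M21 (GRCm38), whose exon unions gave lengths and TPM. CPM was normalised by TMM. The test of variation used edgeR 4.0.16 under R 4.3.3 (filterByExpr, intercept-only glmQLFit, quasi-dispersion over its trend against the upper tail of F, Benjamini-Hochberg at 0.05). It was checked on simulated counts only for changes in 1 library larger than the range of any member, so smaller changes were not checked. DESeq2 1.42.0 and limma 3.58.1 were alternatives, as were other lengths, filters and scalings, and each library left out. Python 3.11.15 did the rest.

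Members and lists were chosen with earlier results of these data known. Genes named are the members, the 3 highest and lowest of each pathway list, those at unadjusted p under 0.05, the 3 most like Klf2, and further list members as examples, picked after their values were seen. Intervals are SDs over 4 libraries. The values of 2 list genes are not reported here, although summaries of their lists include them.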

Additional observations from a re-analysis of the deposited data

Results flagged for a closer look

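Over 44 series of 4 library values (TPM and normalised CPM of the members and of 7 other Krüppel-like factor genes, the Klf2 share, and the differences between neighbours), 4 had 1 library far from the rest, measured as its gap to the nearest other library over the whole range. About 1 in 20 independent series is expected to do so without cause. These series share genes and libraries, so the count of 4 cannot be set against that rate. Klf7 normalised CPM was low in library 3 (14.8, against 17.7 in each of the others), with a gap of 0.979 of the range, although its whole range was 1.20-fold. Klf13 normalised CPM was high in library 1 (159, against 130.4 to 133 in the others), with a gap of 0.895 of the range. Klf1 was high in library 4, with gaps of 0.904 for TPM and 0.899 for normalised CPM, on counts of 15 there and 2 or 3 in the others.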

How the results depend on the processing

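The number of genes varying between libraries (1) was 262 with no filter on low counts, 63 with robust edgeR, 159 as DESeq2 dispersion outliers, 0 with limma-voom (603 genes at an unadjusted p under 0.05), and 0 to 19 with 1 library left out (0 without library 2, with 557 genes at an unadjusted edgeR p under 0.05). Members passing numbered 0 in the edgeR fit reported and 1 with no filter and by DESeq2, Klf2 in both cases, and 0 under the other settings. Members at an unadjusted p under 0.05 (4) were 2 to 4 with 1 library left out, 2 without library 2. The Klf2 share of member TPM (67.2%) fell outside 1 SD as a share of counts (46.1%), and ran from 65.1 to 69.0% when each library was dropped in turn. Without gene length, differences reversed for Klf4 minus Klf13 (-0.29), Klf16 minus Klf11 (-0.089) and Klf11 minus Klf3 (-0.15) in log2. Klf2 had 868 TPM without library 2. With mitochondrial and immunoglobulin genes left out of the sum that defines TPM, levels of all 10 members were higher by a common factor per library, Klf2 at 2357 TPM. The cause of these shifts was not tested beyond what each setting changes by construction. No paired analysis was possible because there is 1 group. Members had 90 to 19691 counts per library, and 4 libraries limit the precision. The coefficient of variation from counting alone ran from 0.897% (Klf2) to 8.69% (Klf9). For Klf7 it was 6.45%, against 6.10% between libraries in TPM and 8.53% in normalised CPM, and for Klf16 4.63%, against 13.6 and 7.18%.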
